A study of Mus musculus with 18 samples.

Results

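The genes described here are 4 BMP ligands (Bmp2, Bmp4, Bmp6 and Bmp7), the BMP antagonist Grem1 (Gremlin 1) and the 4 Id genes (Id1, Id2, Id3 and Id4). They were chosen by name, as 9 of the 55335 genes counted in bulk RNA-seq of O9-1 cells, and their levels were read at d2.5 and at d5 of culture in osteoblast differentiation medium. O9-1 is a wild-type neural crest (NC) cell line isolated from mouse embryos, so all groups come from the same line. Each day has 3 groups of 3 libraries. Ctrl+vehicle cells received a scrambled siRNA pool (siCtrl) and no FGF2. Ctrl+FGF2 cells received siCtrl and FGF2, a ligand of the FGF receptors, and Y/T dKD+FGF2 cells received FGF2 and siRNA pools against Yap (Yap1) and Taz (Wwtr1), the transcriptional coactivators of the Hippo pathway. A group with the knockdown and no FGF2 was not analysed here, so the knockdown was compared in the presence of FGF2 only. The labels give each day a batch of its own, so day and batch cannot be told apart, and nothing in them says that replicates were separate cultures, so the p-values measure the spread between these libraries, which may be technical.

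BMP ligands are secreted dimers that bind pairs of type I and type II receptor kinases. The active receptors phosphorylate Smad1, Smad5 and Smad9, which enter the nucleus with Smad4 and switch on target genes, of which the Id genes are among the most direct. Grem1 is a secreted protein that binds Bmp2 and Bmp4 and keeps them from their receptors. Id proteins are helix-loop-helix proteins without a DNA-binding region. They pair with the E proteins (Tcf3, Tcf4 and Tcf12) and hold them off DNA, and in bone-forming mesenchyme BMP signals are known to promote osteoblast differentiation.

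The promoters of Id2, Id3, Id4 and Grem1 are shown because the results below turn on the Id genes, the targets of BMP signals, and on Grem1, the antagonist of the ligands. RefSeq windows on GRCm38.p6 that run from 250 bases before to 50 bases after the RefSeq start were held for 6 of the 9 members (Bmp4, Bmp6, Grem1, Id2, Id3 and Id4). The letters searched, on both strands, were CATTCC (the Tead motif, the DNA site of the partners of Yap and Taz), GGCGCC (a GC-rich site of Smad1 and Smad5), GTCTAGAC (the Smad binding element), TGACGTCA (the cAMP response element) and the E boxes CAGCTG and CACGTG, which do not overlap in these windows. Capitals mark these letters, and the windows are written 5′ to 3′ on the strand of the gene. They lie at chr12:25096043-25096342 (minus strand) for Id2, chr4:136143572-136143871 (plus strand) for Id3, chr13:48260866-48261165 (plus strand) for Id4 and chr2:113758599-113758898 (minus strand) for Grem1.
Id2: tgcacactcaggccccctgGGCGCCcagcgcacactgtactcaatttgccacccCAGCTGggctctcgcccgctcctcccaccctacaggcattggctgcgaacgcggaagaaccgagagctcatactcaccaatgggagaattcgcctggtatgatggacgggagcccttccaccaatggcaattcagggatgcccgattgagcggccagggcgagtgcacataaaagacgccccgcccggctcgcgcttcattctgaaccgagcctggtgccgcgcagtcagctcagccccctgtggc
Id3: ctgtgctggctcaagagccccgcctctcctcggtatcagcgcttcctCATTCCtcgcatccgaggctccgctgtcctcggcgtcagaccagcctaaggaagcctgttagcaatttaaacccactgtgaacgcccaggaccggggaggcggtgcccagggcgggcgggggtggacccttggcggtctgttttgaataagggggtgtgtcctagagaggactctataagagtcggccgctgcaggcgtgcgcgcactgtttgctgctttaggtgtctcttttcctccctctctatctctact
Id4: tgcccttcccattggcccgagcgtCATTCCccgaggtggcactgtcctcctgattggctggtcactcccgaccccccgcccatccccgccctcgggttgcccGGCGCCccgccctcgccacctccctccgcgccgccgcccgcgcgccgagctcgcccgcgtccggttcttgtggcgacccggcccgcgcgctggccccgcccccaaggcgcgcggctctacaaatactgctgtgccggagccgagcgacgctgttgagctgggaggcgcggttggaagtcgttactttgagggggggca
Grem1: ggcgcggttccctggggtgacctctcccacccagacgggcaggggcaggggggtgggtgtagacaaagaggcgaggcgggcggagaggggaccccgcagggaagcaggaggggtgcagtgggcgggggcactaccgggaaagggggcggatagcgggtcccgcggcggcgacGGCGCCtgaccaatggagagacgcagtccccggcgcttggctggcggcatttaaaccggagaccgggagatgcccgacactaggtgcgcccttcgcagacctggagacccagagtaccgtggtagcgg
CATTCC began at position -203 from the start in Id3 and at -226 in Id4. GGCGCC began at -231 in Id2, at -148 in Id4 and at -78 in Grem1. CAGCTG began at -196 in Id2, and CACGTG at -188 in Bmp4 and at -127 in Bmp6. Among 32851 windows of all genes on the numbered and sex chromosomes, CATTCC was held by 14.7%, GGCGCC by 11.9%, GTCTAGAC by 0.213%, TGACGTCA by 1.79%, CAGCTG by 16.3% and CACGTG by 7.15%. GTCTAGAC and TGACGTCA were in none of the 6 windows. The windows of the 6 members held between 60.0% and 73.3% G and C, against a median of 52.7% over all windows. These matches are a description of the letters and no sign of binding. The starts of the genes can differ between RefSeq and GENCODE, as those of Bmp6, Id2, Id3 and Id4 do, so the positions hold for the RefSeq start only.

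The depth was 10377151 to 14698525 gene counts a library (median 12330911). Below, a level in CPM is a count per library total, with the totals scaled by the TMM method over the 18 libraries together. With the siRNA pools, Yap1 fell to 51.6% of its Ctrl+FGF2 level at d2.5 and to 46.1% of it at d5, and Wwtr1 to 60.8% and 57.5%, as the labels state. At d2.5, however, Wwtr1 was itself raised by FGF2 (140 ± 1.87 CPM, SD, n = 3, without it and 222 ± 2.96 CPM with it), so that its knockdown level of 136 ± 5.97 CPM was not called different from Ctrl+vehicle (adjusted p = 0.122 in edgeR's quasi-likelihood test). Of 10 markers of cranial NC cells and their mesenchyme, Sox10 and Foxd3, which define early NC cells, were at 0 counts in all 18 libraries. The other 8 were detected in every library, Tfap2a at 34.0 to 59.1 CPM, Pax3 at 2.04 to 17.2, Sox9 at 43.2 to 169, Snai2 at 41.7 to 91.5, Twist1 at 49.5 to 96.8, Nes at 1.35 to 9.61, Pdgfra at 84.9 to 586 and Prrx1 at 1281 to 2238 CPM. Among markers of other cell types, the neuronal list of 4 genes summed to between 43.2 and 45.9 CPM in Ctrl+vehicle at d2.5 and to between 8.89 and 10.6 CPM in Ctrl+FGF2, nearly all from Stmn2, with Rbfox3 at 0 in every library. In the same groups the epithelial list of 4 genes summed to between 4.41 and 5.61 CPM and to between 1.20 and 2.04 CPM, and the endothelial list of 4 genes, with Cdh5 and Tie1 at 0, to between 2.78 and 3.87 CPM and to between 0.668 and 1.53 CPM. The blood list of 4 genes was at most 5.50 CPM and the pluripotent list of 3 genes at most 0.896 CPM in any library. The part of other cell types in the changes below was not tested, and in bulk RNA fewer cells of a type and less RNA per cell cannot be told apart.

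Levels of different genes were compared per length, as TPM, in which counts per kb of exon are scaled to the same total in every library. On this scale Grem1 stood far above the ligands in every group. In Ctrl+vehicle at d2.5 it was at 980 ± 31.5 (SD, n = 3), against 8.70 ± 1.45 for Bmp2 and 4.09 ± 0.671 for Bmp4. The ratio of Grem1 to the summed level per length of the 4 ligands was between 58.4 and 83.9 in the 9 libraries of d2.5 and between 16.7 and 40.0 in those of d5, so its ranges on the 2 days did not overlap. With merged exons as the length, Bmp2 was above Bmp4 at d2.5 and below it at d5. The Bmp4 to Bmp2 ratio per length was between 0.174 and 0.591 at d2.5 and between 4.21 and 6.38 at d5. With the mean transcript length in its place, this ratio was between 0.350 and 1.19 at d2.5, so the order of the pair there depends on the length, and between 8.46 and 12.8 at d5. The ratio of Grem1 to the ligands was then between 48.1 and 60.5 at d2.5 and between 8.98 and 21.9 at d5. Bmp8a, a ligand outside the 9 members, was at 73.7 ± 8.93 per length in Ctrl+vehicle at d5, where Bmp4 was at 99.4 ± 8.66. It was above Bmp4 in the other groups of d5, at 74.9 ± 4.70 against 59.4 ± 2.99 in Ctrl+FGF2 and at 78.2 ± 5.72 against 54.7 ± 2.71 in Y/T dKD+FGF2. With the mean transcript length it was below Bmp4 in all 9 libraries of d5 (ratio between 0.321 and 0.811).

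**Figure D1:**
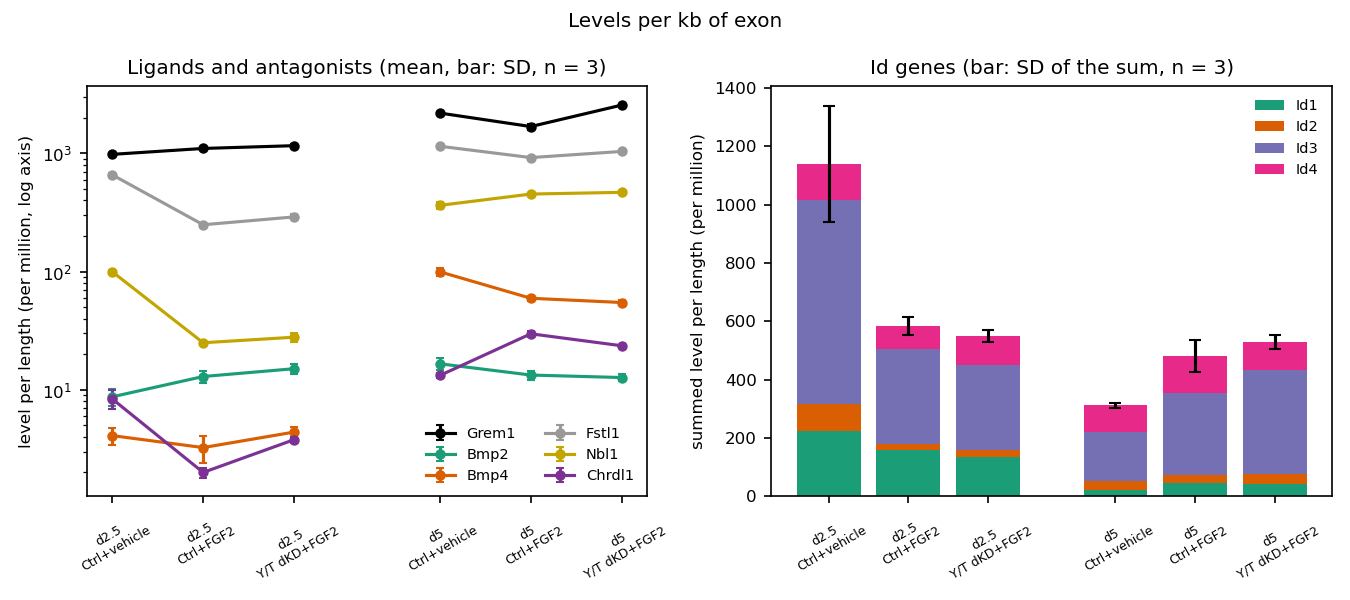
Levels per length (TPM, merged exons) in the 6 groups (mean of 3 libraries, bars are the SD). On the left, on a log axis, Grem1 lies above Bmp2, Bmp4 and the antagonists Fstl1, Nbl1 and Chrdl1 in every group, but with the mean transcript length it is below Fstl1 in every library (ratio between 0.311 and 0.998 at d2.5 and between 0.388 and 0.561 at d5). On the right the stacked Id genes are highest in Ctrl+vehicle at d2.5 (1140 in sum) and lowest in Ctrl+vehicle at d5 (312 in sum).

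The summed level per length of the Id genes was 1140 ± 199 in Ctrl+vehicle at d2.5 and 312 ± 9.85 in Ctrl+vehicle at d5. With FGF2 the sum was 583 ± 30.6 at d2.5 and 480 ± 54.3 at d5. Id3 made up the most of this sum in every group, from 50.8% of it in one Ctrl+vehicle library of d5 to 68.5% in one Y/T dKD+FGF2 library of d5. Id1 was between 18.2% and 28.1% of the sum at d2.5 and between 6.17% and 10.4% at d5, whereas Id4 was between 10.7% and 18.7% at d2.5 and between 17.9% and 32.2% at d5. The ranges of the 2 days did not overlap for Id1 and overlapped for Id4. With merged exons as the length, Id2 had the smallest share at d2.5, between 3.15% and 8.48%. With the mean transcript length, Id2 was between 3.03% and 7.81% there and Id4 between 5.65% and 10.5%. The order of these genes at d2.5 thus depends on the length. Id3 still had the largest share, between 70.4% and 76.6% at d2.5 and between 67.7% and 81.3% at d5.

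The ligands divide into a pair that was measured and a pair at or near 0. Bmp7 had 0 counts in all 18 libraries, which at 3 counts a library allows up to between 0.204 and 0.289 CPM and covers counting error only. Bmp6 had 17 counts over all libraries, 8 of them in Ctrl+vehicle at d5. These 2 genes did not pass the filter on low counts and were not tested, so 7 of the 9 members have a test in each comparison. Bmp2, a ligand that induces bone, had 6.83, 9.49 and 7.65 CPM in the Ctrl+vehicle libraries of d2.5 (replicates 1, 2 and 3), 12.3, 13.9 and 10.7 CPM in Ctrl+FGF2 and 15.8, 13.0 and 14.5 CPM in Y/T dKD+FGF2. All vehicle libraries of d2.5 were thus below all libraries with FGF2. Bmp2 rose with FGF2 by 0.60 ± 0.12 (log2, SE, adjusted p = 6.6e-05 in edgeR's quasi-likelihood test), and its further difference of 0.22 ± 0.11 with the knockdown did not pass (adjusted p = 0.151). At d5 the order was the other way round. Bmp2 was at 18.3, 15.1 and 15.4 CPM in Ctrl+vehicle, 13.4, 11.5 and 12.9 CPM in Ctrl+FGF2 and 11.3, 13.0 and 12.1 CPM in Y/T dKD+FGF2. Here the vehicle libraries were above all others, and Bmp2 fell by 0.35 ± 0.11 on the log2 scale with FGF2 (adjusted p = 0.0106). This call was lost without replicate 1 of Ctrl+vehicle (adjusted p = 0.0561) or without replicate 2 of Ctrl+FGF2 (adjusted p = 0.053).

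Bmp4 was low at d2.5 and rose with the day in each of the 3 conditions. At d2.5 it had 2.55, 1.94 and 2.63 CPM in Ctrl+vehicle, 1.83, 1.53 and 2.47 CPM in Ctrl+FGF2 and 2.32, 2.88 and 2.76 CPM in Y/T dKD+FGF2, from between 21 and 37 counts a library. The 3 groups of d2.5 overlapped and no comparison among them passed the test. At d5 Bmp4 had 67.2, 60.8 and 57.4 CPM in Ctrl+vehicle, 36.7, 34.0 and 36.1 CPM in Ctrl+FGF2 and 31.0, 34.5 and 33.7 CPM in Y/T dKD+FGF2. All vehicle libraries were higher than all libraries with FGF2, while the Ctrl+FGF2 and knockdown libraries overlapped. Bmp4 fell by 0.78 ± 0.07 on the log2 scale with FGF2 at d5 (adjusted p = 3.4e-08), to 58.2% of the vehicle level, and the knockdown difference of -0.11 ± 0.07 did not pass (adjusted p = 0.258). Between d2.5 and d5 Bmp4 rose by 4.71 ± 0.11 on the log2 scale without FGF2, by 4.18 ± 0.12 with it and by 3.63 ± 0.12 with FGF2 and the knockdown, the largest rise of any member in each condition.

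Grem1, the antagonist, had the most counts of the members (between 13657 and 34814 a library). At d2.5 it was at 1077, 1016 and 1056 CPM in Ctrl+vehicle, 1206, 1211 and 1242 CPM in Ctrl+FGF2 and 1333, 1253 and 1305 CPM in Y/T dKD+FGF2. The 3 groups did not overlap, but the steps between them were small. Grem1 rose with FGF2 by 0.21 ± 0.03 on the log2 scale (adjusted p = 3.0e-07), and it was a further 0.08 ± 0.03 higher with the knockdown (adjusted p = 0.0466). This last call was lost in the fit of all 18 libraries (adjusted p = 0.1), with unstranded counts (adjusted p = 0.0587) and without replicate 3 of Ctrl+vehicle, any 1 replicate of Ctrl+FGF2 or replicate 1 or 3 of Y/T dKD+FGF2 (adjusted p between 0.0703 and 0.216). At d5 the knockdown difference of Grem1 was larger. Its levels were 2431, 2634 and 2475 CPM in Ctrl+vehicle, 1745, 1972 and 1876 CPM in Ctrl+FGF2 and 2818, 2893 and 2864 CPM in Y/T dKD+FGF2. The Ctrl+FGF2 libraries were lowest and the knockdown libraries were highest, above the vehicle libraries too. Grem1 fell by 0.42 ± 0.04 on the log2 scale with FGF2 (adjusted p = 3.3e-07) and rose by 0.61 ± 0.04 with the knockdown (adjusted p = 6.0e-09), which placed it 0.19 ± 0.04 above Ctrl+vehicle (adjusted p = 0.00128).

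**Figure D2:**
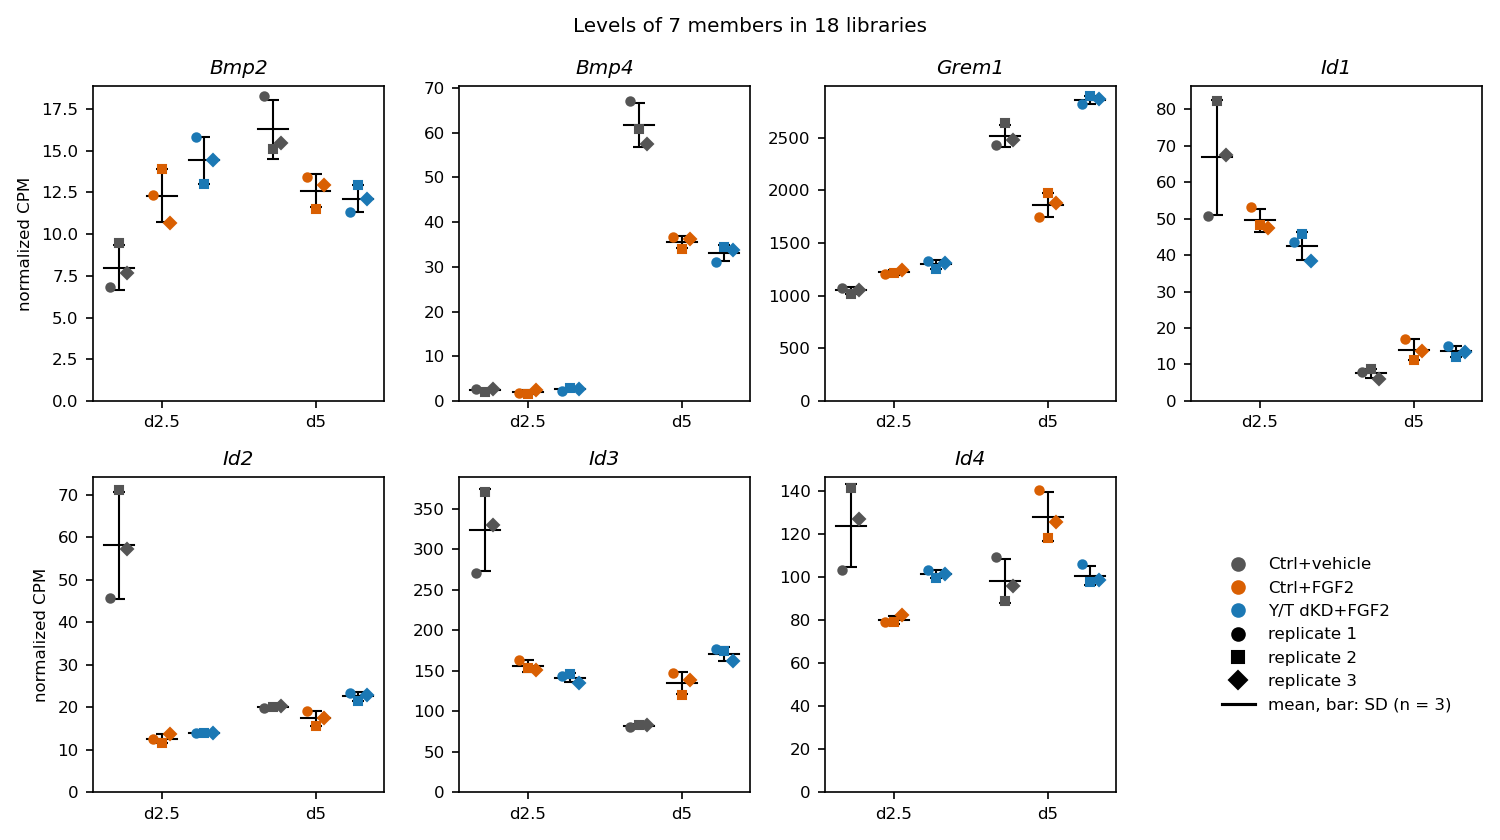
Normalized CPM (from 0, each panel with its own scale) of the 7 members with a test in all 18 libraries, with the mean and SD of each group of 3. Bmp4 and Grem1 are higher at d5 than at d2.5 in each condition, and Id1, Id2 and Id3 are highest in Ctrl+vehicle at d2.5, where replicate 2 has the highest level of each Id gene.

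The Id genes fell with FGF2 at d2.5. Id2 had 45.8, 71.1 and 57.3 CPM in Ctrl+vehicle (replicates 1, 2 and 3), 12.5, 11.7 and 13.8 CPM in Ctrl+FGF2 and 14.1, 14.1 and 13.9 CPM in Y/T dKD+FGF2. Every vehicle library was thus more than 3-fold above every library with FGF2. Id2 fell by 2.21 ± 0.11 on the log2 scale with FGF2 (adjusted p = 1.4e-17), to 21.6% of the vehicle level. Id3, the most abundant Id gene, had 270, 371 and 330 CPM in Ctrl+vehicle, 164, 154 and 151 CPM in Ctrl+FGF2 and 143, 146 and 136 CPM in Y/T dKD+FGF2. Its 3 groups did not overlap, and it fell by 1.06 ± 0.06 with FGF2 (adjusted p = 1.5e-15). Id4 had 103, 142 and 127 CPM in Ctrl+vehicle, 79.5, 79.0 and 82.3 CPM in Ctrl+FGF2 and 103, 99.6 and 101 CPM in Y/T dKD+FGF2. It fell by 0.64 ± 0.06 with FGF2 (adjusted p = 3.1e-10), and its knockdown libraries lay between the Ctrl+FGF2 and most of the vehicle libraries. Id1 had 50.8, 82.3 and 67.5 CPM in Ctrl+vehicle, 53.1, 48.2 and 47.4 CPM in Ctrl+FGF2 and 43.7, 45.7 and 38.3 CPM in Y/T dKD+FGF2. Its vehicle and Ctrl+FGF2 libraries overlapped, although the fall of 0.45 ± 0.10 passed the test (adjusted p = 0.00013).

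In Ctrl+vehicle at d2.5, replicate 2 was the highest library for all 4 Id genes and replicate 1 the lowest. Without replicate 2 the falls with FGF2 were 2.02 for Id2, 0.95 for Id3, 0.52 for Id4 and 0.26 for Id1 on the log2 scale, and each still passed (adjusted p = 0.00188 for Id1, the highest of the 4). Hey1, Sp7, Smad6, Smad7, Smad9 and Bambi, which are also read as BMP targets or regulators, had the same highest and lowest library in this group. They were picked after their values were seen, and how many of all genes share this order was not counted. Among other listed genes, Fstl1 had the same order per length, whereas Nbl1, Chrdl1 and Bmp8a had another, with replicate 2 the lowest. Bmp4 and Grem1 had their lowest vehicle level in replicate 2, whereas Bmp2 had its highest.

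With FGF2 against vehicle at d2.5, 2 of the 7 members tested were called higher and 4 lower. Over the whole table of 13677 genes, 33.5% were called higher and 34.1% lower. The median log2 fold change of the 7 members was -0.45, against 0.00 over all genes tested. With so many genes called, a call alone sets no member apart, and the sizes are the result. The knockdown called 2 members higher (Id4 and Grem1) at a background of 10.8%, and 0 lower at a background of 13.6%, with the median of the members at 0.13. By the unadjusted p under 0.05, 2 members were lower with the knockdown (Id1 and Id3), and by DESeq2 0 were.

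Id4 rose with the knockdown by 0.33 ± 0.07 on the log2 scale at d2.5 (adjusted p = 0.00049). Id1 and Id3, at -0.23 ± 0.10 and -0.15 ± 0.07, did not pass (both with adjusted p = 0.114), although their Ctrl+FGF2 and knockdown libraries did not overlap. They passed as lower when only the 2 groups compared were fitted (adjusted p = 0.00176 and 0.00143), without the filter on low counts (adjusted p = 0.00126 and 0.00235), and without replicate 1 (adjusted p = 0.00433 and 0.00327) or replicate 2 (adjusted p = 0.0119 and 0.0153) of Ctrl+vehicle, a group that is not part of this contrast but shares its estimate of the spread. Id2 was at 0.13 ± 0.14 and did not pass (adjusted p = 0.548), and its libraries of these 2 groups did not overlap either. The share of all genes without overlap was not counted, so the lack of overlap sets none of these genes apart.

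Against Ctrl+vehicle, the Y/T dKD+FGF2 cells of d2.5 had 2 members called higher (34.1% of all genes were) and 4 lower (35.7% of all genes were). Bmp2 was 0.82 ± 0.12 higher and Grem1 0.29 ± 0.03 higher on the log2 scale. Id1 was at -0.67 ± 0.10, Id2 at -2.08 ± 0.11, Id3 at -1.21 ± 0.07 and Id4 at -0.31 ± 0.06, all with an adjusted p of 7.5e-05 or less. The 3 comparisons of a day share their libraries, so these values stand side by side with the 2 others and are not independent of them. The value of Id4 was -0.20 without replicate 2 of Ctrl+vehicle and still passed (adjusted p = 0.00089).

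**Figure D3:**
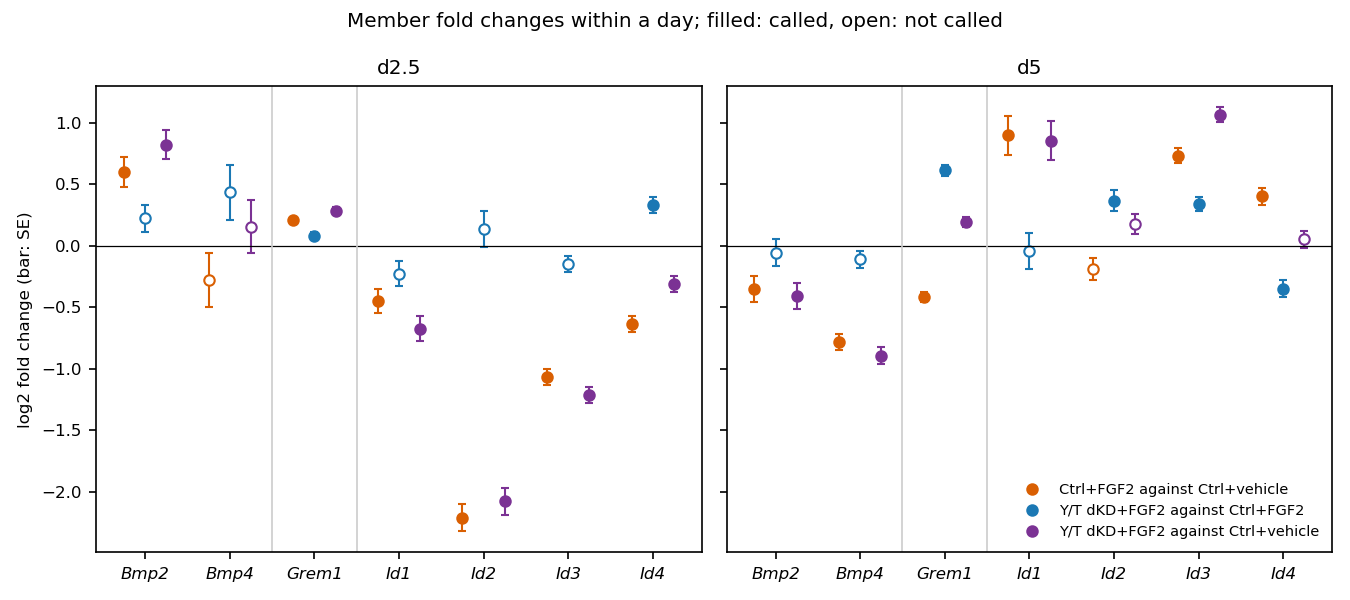
Log2 fold changes (bars are the SE) of the 7 members in the 3 comparisons of each day, filled where the adjusted p passed and open where it did not. With FGF2 the 4 Id genes lie below 0 at d2.5, and Id1, Id3 and Id4 lie above 0 at d5, while Grem1 and Bmp2 lie above 0 at d2.5 and below 0 at d5.

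At d5 Id1, Id3 and Id4 rose with FGF2, and Id2 did not pass. Id1 had 7.84, 8.67 and 6.10 CPM in Ctrl+vehicle, 17.0, 11.2 and 13.7 CPM in Ctrl+FGF2 and 15.1, 12.0 and 13.5 CPM in Y/T dKD+FGF2. All vehicle libraries were below all libraries with FGF2, and Id1 rose by 0.89 ± 0.16 (adjusted p = 0.00016). Id3 had 80.2, 82.7 and 83.8 CPM in Ctrl+vehicle, 147, 121 and 138 CPM in Ctrl+FGF2 and 177, 174 and 162 CPM in Y/T dKD+FGF2. Its 3 groups did not overlap, with a rise of 0.73 ± 0.06 with FGF2 (adjusted p = 3.6e-08) and a further rise of 0.34 ± 0.06 with the knockdown (adjusted p = 0.0002). Id4 had 109, 89.2 and 96.0 CPM in Ctrl+vehicle, 141, 118 and 126 CPM in Ctrl+FGF2 and 106, 97.9 and 98.7 CPM in Y/T dKD+FGF2. It rose by 0.40 ± 0.07 with FGF2 (adjusted p = 0.00013) and fell by 0.35 ± 0.07 on the log2 scale with the knockdown (adjusted p = 0.00079), so that its knockdown and vehicle libraries overlapped. Id2 had 19.9, 20.0 and 20.3 CPM in Ctrl+vehicle, 19.2, 15.7 and 17.5 CPM in Ctrl+FGF2 and 23.3, 21.4 and 23.0 CPM in Y/T dKD+FGF2. Its Ctrl+FGF2 libraries were lowest, but the difference of -0.19 ± 0.09 did not pass (adjusted p = 0.0794, and 0.0287 without replicate 1 of Ctrl+FGF2). Id2 rose by 0.37 ± 0.08 with the knockdown (adjusted p = 0.00273), and the difference of Id1, at -0.04 ± 0.14, did not pass (adjusted p = 0.857).

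With FGF2 at d5, 3 of the 7 members tested were called higher and 3 lower, where 23.5% and 23.7% of 13304 genes were called higher and lower. The knockdown called 3 members higher (Grem1, Id2 and Id3) and 1 lower (Id4), at backgrounds of 15.6% and 16.1%. Against Ctrl+vehicle, Y/T dKD+FGF2 had 3 members called higher (Grem1, Id1 and Id3, background 20.7%) and 2 lower (Bmp2 and Bmp4, background 21.1%). In this last comparison Id3 was 1.06 ± 0.06 higher on the log2 scale, Id1 0.85 ± 0.16 higher, and Bmp4 at -0.89 ± 0.07. Id4, at 0.05 ± 0.07, and Id2, at 0.18 ± 0.08, did not pass (adjusted p = 0.613 and 0.0991).

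Between the days, Bmp2, Bmp4 and Grem1 were higher and the Id genes lower in Ctrl+vehicle, in values where day and batch cannot be told apart. In Ctrl+vehicle all 7 members tested were called between d2.5 and d5, with 3 higher (33.1% of 14198 genes were) and 4 lower (33.2% were). Grem1 rose by 1.26 ± 0.04 and Bmp2 by 1.01 ± 0.12 on the log2 scale beside Bmp4, while Id1 fell by 3.15 ± 0.16, Id3 by 1.98 ± 0.08, Id2 by 1.54 ± 0.11 and Id4 by 0.34 ± 0.08. Without replicate 2 of Ctrl+vehicle at d2.5 the falls were 2.96, 1.87, 1.36 and 0.23 in the same order, and each passed. In Ctrl+FGF2, 4 members were called higher (background 41.2%) and 2 lower (background 38.8%). Beside Bmp4, Grem1 rose there by 0.61 ± 0.04, Id2 by 0.46 ± 0.14 and Id4 by 0.67 ± 0.08, while Id1 fell by 1.83 ± 0.14 and Id3 by 0.21 ± 0.08. Bmp2, at 0.04 ± 0.12, did not pass (adjusted p = 0.787). The call of Id3 was lost without replicate 1 of Ctrl+FGF2 at d2.5 (-0.18, adjusted p = 0.0544) or without replicate 2 of Ctrl+FGF2 at d5 (-0.13, adjusted p = 0.129). In Y/T dKD+FGF2, 4 members were called higher (background 40.3%) and 1 lower (background 38.1%), with Id1 at -1.65 ± 0.15, Id2 0.69 ± 0.13 higher and Id3 0.27 ± 0.08 higher. Beside Bmp4, Grem1 was 1.14 ± 0.04 higher, and Id4, at -0.01 ± 0.08, did not pass (adjusted p = 0.93). Bmp2 was at -0.25 ± 0.12 and just missed the threshold (adjusted p = 0.0558), and it passed with RLE size factors (adjusted p = 0.0422), with upper-quartile factors (0.0356), without the filter on low counts (0.029) and with at least 10 counts in every library (0.0409). It also passed without replicate 1 or 2 of Ctrl+vehicle, replicate 2 of Y/T dKD+FGF2 or any 1 replicate of Ctrl+FGF2 at d2.5, and without replicate 1 of Ctrl+vehicle or replicate 2 of Y/T dKD+FGF2 at d5 (adjusted p between 0.0193 and 0.0479).

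Whether an effect differed between the days was tested directly, in 1 fit of the 18 libraries. The effect of FGF2 differed for all 7 members tested, where 60.9% of all genes passed this test. As d5 minus d2.5 on the log2 scale, the difference was 1.99 ± 0.17 for Id2, 1.77 ± 0.11 for Id3, 1.31 ± 0.24 for Id1 and 1.02 ± 0.11 for Id4. It had the other sign for Bmp2 (-0.98 ± 0.17), Grem1 (-0.65 ± 0.05) and Bmp4 (-0.53 ± 0.23). That of Bmp4 had an adjusted p of 0.0439 and passed in some fits only, since it was lost with upper-quartile factors (adjusted p = 0.093), with unstranded counts (0.0853), without the filter on low counts (0.0768), without replicate 2 of Ctrl+vehicle at d2.5 (0.166), without replicate 1 (0.0554) or replicate 3 (0.308, at -0.32) of Ctrl+FGF2 at d2.5, and without replicate 1 of Ctrl+vehicle (0.066) or replicate 2 of Ctrl+FGF2 (0.0651) at d5. The other 6 passed with an adjusted p of 1.8e-05 or less. The effect of the knockdown differed for 3 of the 7 members, where 20.9% of all genes passed. It was 0.53 ± 0.05 for Grem1 and 0.48 ± 0.11 for Id3, with the higher value at d5, and -0.68 ± 0.11 for Id4, which was higher with the knockdown at d2.5 and lower with it at d5. For Bmp2, Bmp4, Id1 and Id2 the difference of the knockdown effect did not pass (adjusted p between 0.0858 and 0.617), and that of Bmp4 passed without replicate 3 of Ctrl+FGF2 at d2.5 (-0.77, adjusted p = 0.0312).

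**Figure D4:**
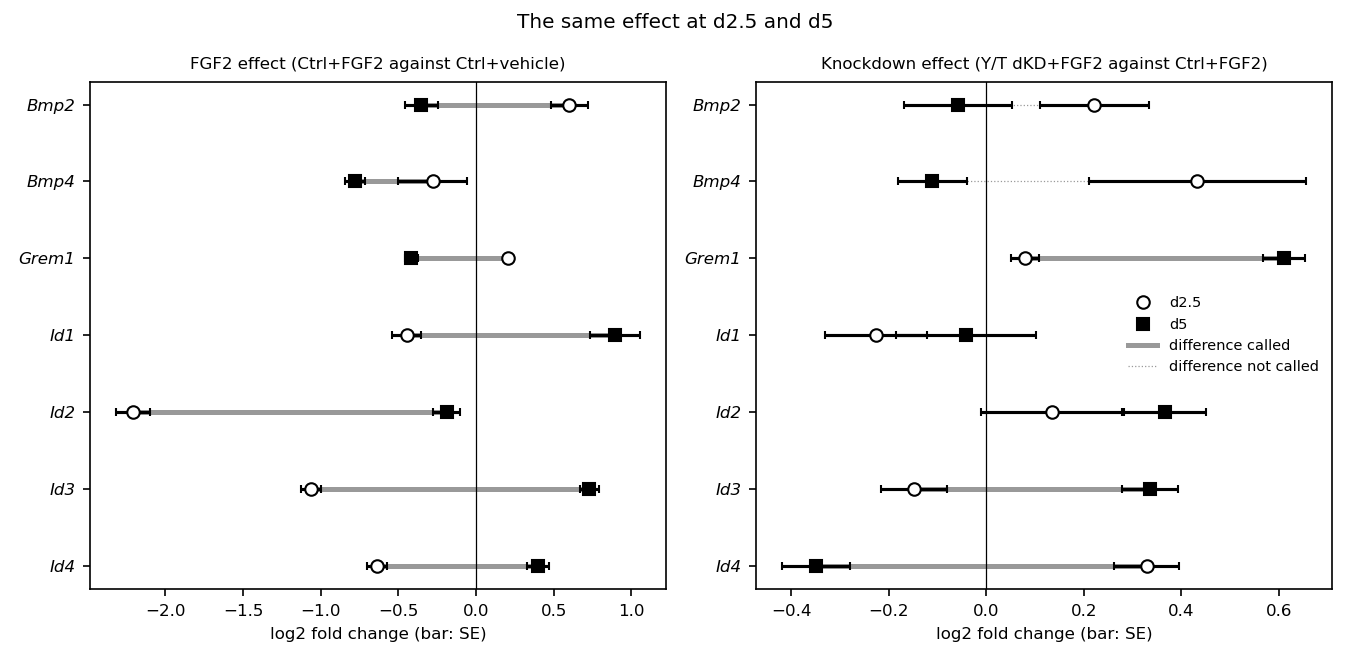
The log2 fold change of each member at d2.5 (open circles) and d5 (filled squares) for FGF2 on the left and the knockdown on the right, with SE bars and separate scales. A thick line joins values whose difference between the days passed the test, which holds for all 7 members with FGF2 and for Grem1, Id3 and Id4 with the knockdown.

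The order of the 6 groups was different for each member. For Grem1 no neighbours in the order overlapped, from 2858 ± 37.5 CPM in Y/T dKD+FGF2 of d5 through Ctrl+vehicle and Ctrl+FGF2 of d5 down to Y/T dKD+FGF2, Ctrl+FGF2 and Ctrl+vehicle (1049 ± 31.0 CPM) of d2.5. Id2 also had no overlapping neighbours and ranged from 58.1 ± 12.7 CPM in Ctrl+vehicle to 12.7 ± 1.03 CPM in Ctrl+FGF2, both of d2.5. Id1 ranged 8.87-fold and Id3 3.94-fold, each from Ctrl+vehicle of d2.5 down to Ctrl+vehicle of d5, and in both of them the 2 groups with FGF2 on each day lay between these ends. Bmp4 ranged 31.8-fold, but its 3 groups of d2.5 overlapped as neighbours, and so did Ctrl+FGF2 and Y/T dKD+FGF2 of d5. Bmp2 ranged 2.04-fold, and the neighbours among its 5 highest groups overlapped, with only Ctrl+vehicle of d2.5 standing apart below them. Id4 had the smallest range, 1.60-fold, with its 5 highest groups overlapping as neighbours and Ctrl+FGF2 of d2.5 apart at the bottom.

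Of 69 other genes of the BMP pathway that were listed by role, 51 were tested at d2.5 and 53 at d5. With FGF2 at d2.5, 32 were called lower and 6 higher (34.1% and 33.5% of all genes were), and the median of their log2 fold changes was -0.66 (0.00 over all genes). Of 12 other target genes, 9 were lower and 3 did not pass. Hey1, a Notch and BMP target that encodes a transcriptional repressor, fell from 107 ± 19.3 to 0.818 ± 0.122 CPM, or by 7.03 ± 0.17 on the log2 scale (adjusted p = 6.7e-26). Sp7, the osteoblast transcription factor osterix, fell from 182 ± 40.8 to 26.1 ± 1.11 CPM, or by 2.82 ± 0.10, and the homeobox gene Msx2 from 6.60 to 1.05 CPM, or by 2.66 ± 0.24. Of 10 Smads and regulators, 6 were lower and Smurf1, a ubiquitin ligase that marks BMP Smads for degradation, was higher (69.8 against 114 CPM, 0.70 ± 0.04). Smad6, an inhibitory Smad that BMP signals induce, fell from 42.4 ± 9.59 to 6.89 ± 0.303 CPM. Smad9 fell from 33.4 to 8.54 CPM, or by 1.98 ± 0.11 on the log2 scale, whereas Smad1, Smad5 and Smad4 did not pass. Of 12 receptors and co-receptors, 8 were lower, among them Bambi, a receptor-like protein without kinase activity, and Tgfbr3, a co-receptor, was higher (54.6 against 98.5 CPM, 0.85 ± 0.06).

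Grem1 was unlike the other antagonists in direction at d2.5. Of the 11 other antagonists tested, 8 were called lower with FGF2 (34.1% of all genes were) and 3 did not pass, with a median of -1.37. Grem1 was called higher, as 33.5% of all genes were. Fstl1, a secreted follistatin-like protein, fell from 835 ± 32.1 to 327 ± 2.87 CPM, and Nbl1, a gremlin family protein, from 52.3 ± 2.08 to 13.6 ± 0.420 CPM. Noggin (Nog) was not tested, with 21 counts in the 3 vehicle libraries and 0 in the 6 libraries with FGF2 at d2.5. The list of Id partners held 5 genes, the E proteins Tcf3, Tcf4 and Tcf12 and, beside them, Twist1 and Twist2. Of these, 4 were higher with FGF2 at d2.5 (33.5% of all genes were). The rise was 0.17 ± 0.04 for Tcf3, 0.43 ± 0.03 for Tcf4, 0.28 ± 0.04 for Tcf12 and 1.11 ± 0.10 for Twist2. Twist1 was at -0.02 ± 0.05 (adjusted p = 0.737).

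With the knockdown at d2.5, 13 of the 51 pathway genes tested were higher and 6 lower (10.8% and 13.6% of all genes were), with a median of 0.05. Chrdl1, a chordin-like antagonist, rose from 3.61 to 6.88 CPM (0.92 ± 0.16, adjusted p = 8.2e-05), Sp7 from 26.1 to 36.0 CPM (0.46 ± 0.13, adjusted p = 0.00976) and Skil, a repressor of Smads, from 64.0 to 87.0 CPM (0.43 ± 0.07). Crim1, which binds BMPs at the cell surface, fell by 0.40 ± 0.06 on the log2 scale, Twist2 by 0.37 ± 0.09 and Tcf3 by 0.26 ± 0.04. Hey1 and Smad6 did not pass (adjusted p = 0.597 and 0.936), at 1.09 ± 0.149 and 7.07 ± 0.278 CPM. Against Ctrl+vehicle, 30 of the 51 were lower with Y/T dKD+FGF2 and 11 higher (35.7% and 34.1% of all genes were), with Hey1 at -6.63 ± 0.16, Msx2 at -2.80 ± 0.26 and Smad6 at -2.60 ± 0.13, and with Tgfbr3 (0.75 ± 0.06), Twist2 (0.74 ± 0.10) and Tcf4 (0.61 ± 0.03) the most increased by the naming rule.

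With FGF2 at d5, 15 of the 53 pathway genes tested were higher and 16 lower, with a median of -0.02 against 0.02 over all genes. Of all genes, 23.5% were higher and 23.7% lower, so these counts were near the background. Rgma, a BMP co-receptor, rose from 16.9 to 37.4 CPM (1.16 ± 0.08), Chrdl1 from 24.6 to 53.6 CPM (1.13 ± 0.06) and the target Atoh8 from 16.4 to 28.6 CPM (0.82 ± 0.08). The homeobox target Dlx5 fell by 1.17 ± 0.24 on the log2 scale, Msx2 by 1.05 ± 0.20 and Bmp3, a BMP family member that is known to oppose the bone-inducing ligands, by 0.96 ± 0.08. Bmp3 thus fell beside Bmp4, and like Bmp4 it was lower at d2.5, where it was too low to be tested (0.308 ± 0.102 CPM in Ctrl+vehicle, against 39.5 ± 2.05 CPM at d5). Smad6 rose from 14.8 ± 0.923 to 22.2 ± 1.77 CPM (0.59 ± 0.09), beside Id1, Id3 and Id4. Hey1 fell by 0.71 ± 0.10 on the log2 scale at d5 (18.6 ± 1.78 to 11.3 ± 1.11 CPM).

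With the knockdown at d5, 14 of the 53 pathway genes tested were higher and 14 lower (15.6% and 16.1% of all genes were), with a median of 0.04. The T-box target Tbx2 rose from 2.02 to 6.40 CPM (1.65 ± 0.22), Hey1 from 11.3 to 20.6 CPM (0.86 ± 0.10) and Sp7 from 44.5 to 70.1 CPM (0.65 ± 0.09). Rgma fell by 0.82 ± 0.07 on the log2 scale, the ligand Gdf5 by 0.53 ± 0.17 and chordin (Chrd) by 0.52 ± 0.15. Of the 5 genes listed as Id partners, 4 were higher and Tcf3 did not pass (adjusted p = 0.275). Of the 11 antagonists, Fstl1 was called higher (0.18 ± 0.03) and 3 were called lower, which were Chrd, Chrdl1 (-0.33 ± 0.06) and Crim1 (-0.14 ± 0.05). Against Ctrl+vehicle, 17 of the 53 were higher with Y/T dKD+FGF2 and 14 lower (20.7% and 21.1% of all genes were), led by Twist2 (1.21 ± 0.17), Sp7 (0.97 ± 0.09) and Tbx2 (0.83 ± 0.19) on one side and by Bmp3 (-1.22 ± 0.08), Dlx5 (-1.14 ± 0.24) and Msx2 (-0.93 ± 0.19) on the other.

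**Figure D5:**
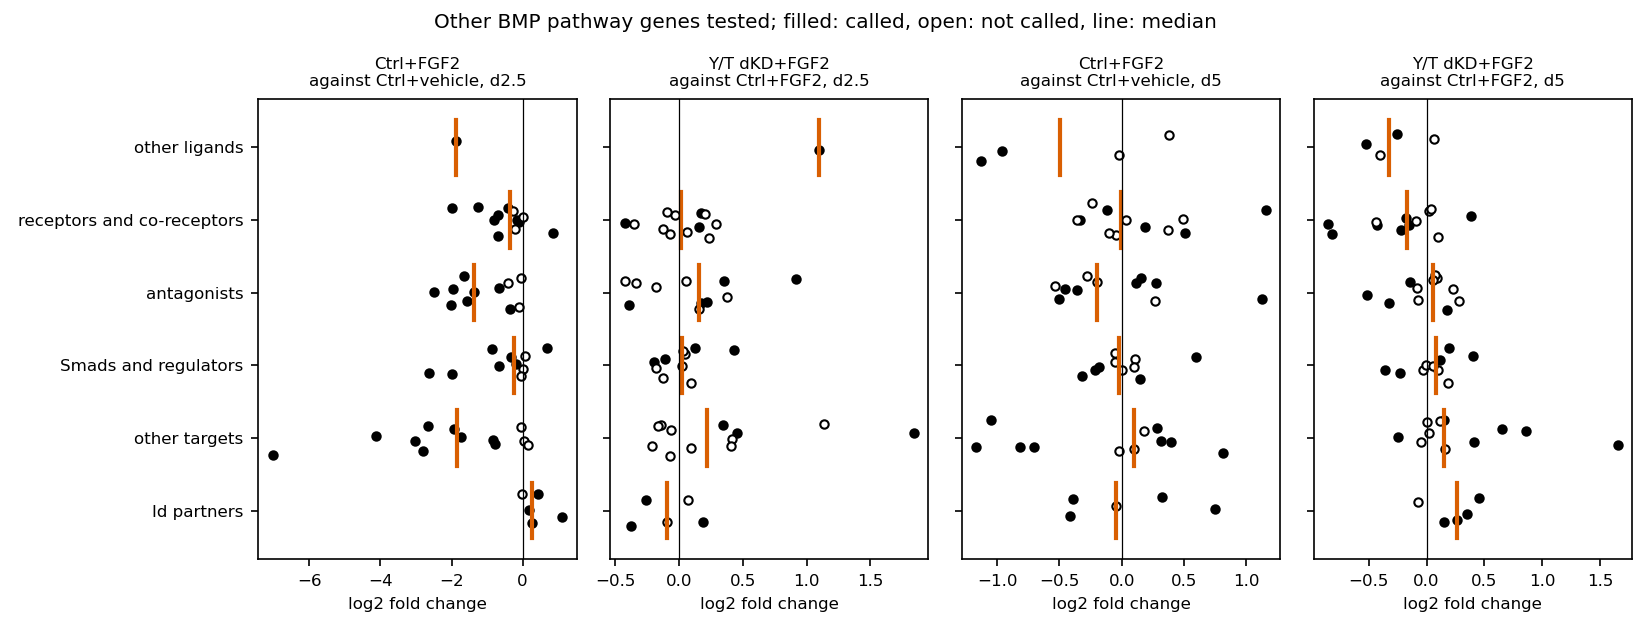
Log2 fold changes of the other BMP pathway genes tested, by list, for FGF2 and for the knockdown on each day (filled points passed the test, open points did not, the line is the median of the list, and each panel has its own horizontal scale). With FGF2 at d2.5 the antagonists (median -1.37) and other targets (median -1.84) lie mostly below 0, and at d5 the medians of these lists are -0.20 and 0.10.

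The genes whose pattern was most like that of a member were read from the correlation of log2 CPM over the 18 libraries with 11730 other genes, as a description, since these libraries share their days, groups and depth. Bmp4 was most like Bmp3 (r = 0.99), followed by Htra1 and Itgbl1. Grem1 was most like F3, Dennd4c and Zfp658 (r = 0.99 for each), Id1 most like Smarca4 (r = 0.98), Mt1 and Rplp1, and Id2 most like Dlst and Bambi (r = 0.97 for each). Bambi was thus the pathway gene nearest to Id2. Id3 was most like Adgrg1 (r = 0.95), Cabin1 and Sdc3, Bmp2 most like Vamp3 (r = 0.93), Eif1a and Macf1, and Id4 most like Skp1a (r = 0.84), Mcee and Nrp1.

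Bmp4 lies on chromosome 14 from 46383520 to 46390669 (minus strand), Bmp2 on chromosome 2 from 133552159 to 133562885 (plus strand), Grem1 on chromosome 2 from 113746164 to 113758646 (minus strand) and Id1 on chromosome 2 from 152736251 to 152737410 (plus strand) in the GENCODE M21 annotation of GRCm38. Id2 lies on chromosome 12 from 25093799 to 25097140 (minus strand), Id3 on chromosome 4 from 136143497 to 136145755 (plus strand) and Id4 on chromosome 13 from 48261228 to 48266026 (plus strand). Bmp6 lies on chromosome 13 from 38345107 to 38500302 (plus strand) and Bmp7 on chromosome 2 from 172868012 to 172940321 (minus strand). All counts are over the exons of the whole gene. Bmp4 overlaps Gm15217 and Gm15222, Bmp6 overlaps 4930579J19Rik and Txndc5, and Id4 overlaps A330033J07Rik and Gm49291, all on the other strand. The counts of 1 strand were used for all values. Some of the other pathway genes, among them Bmp8a (with Oxct2a), overlap another gene on the same strand.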

How the data were processed

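Poly(A) RNA of 18 O9-1 libraries (SMARTER mRNA-Seq kit) was sequenced. The authors deposited 1 table of raw read counts per gene for each library, with an unstranded column and a column for each strand, in the layout of STAR gene counting. Per the submitters' processing notes, FastQC, STAR, Picard, featureCounts and the mm10 build were used, and versions are not given in the sources used here. The reverse column held between 96.0% and 96.6% of stranded counts and was used. Between 27.0% and 34.4% of reads were not assigned to a single gene, whatever the reason, and were left out. Identifiers were named from GENCODE M21 (55154 of 55335 matched).

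Counts were fitted with edgeR 4.0.16 (R 4.3.3) by the quasi-likelihood test with TMM scaling and filterByExpr, with Benjamini-Hochberg adjustment over all genes tested and a threshold of 0.05. The 9 libraries of a day were fitted together for the comparisons within it, and all 18 for changes between days and for differences of effects between days. SE is that of the log2 fold change, calculated back from the test as the absolute fold change over the square root of its F statistic. Fits were tested on simulated data with known changes. Far fewer genes changed there than were called in these data, so the case where most genes change was not covered. No 2 libraries held identical counts. Levels per length used merged exons, and likeness was Pearson's r of log2 CPM with a prior count of 2.

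All members are named in every comparison. Of the other BMP pathway genes, the 3 largest rises and the 3 largest falls were named from those called, given non-overlapping libraries and an average log2 CPM no lower than 1, and further pathway genes (Bmp8a, Smad1, Smad4, Smad5, Smad6, Smad7, Smad9, Bambi, Fstl1, Nbl1, Nog, the Id partners, and Bmp3, Chrdl1, Crim1, Sp7 and Hey1 where they fall outside this rule) were added after their values were seen. Some genes that the rules name are not reported here. The members and lists were chosen with earlier results of these data known. Alternatives were RLE and upper-quartile factors, no filter, at least 10 counts in every library, a replicate block, unstranded counts, DESeq2 1.42.0, other sets of libraries in the fit, and each library left out.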

Additional observations from a re-analysis of the deposited data

Results flagged for a closer look

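The effect of FGF2 differed between the days for all 7 members tested, by a test of the difference itself in edgeR's fit of the 18 libraries. As d5 minus d2.5 on the log2 scale, the differences were 1.31 for Id1, 1.99 for Id2, 1.77 for Id3 and 1.02 for Id4, and -0.98 for Bmp2, -0.53 for Bmp4 and -0.65 for Grem1. The effect of the knockdown differed for Grem1 (0.53), Id3 (0.48) and Id4 (-0.68). Of all genes tested, 60.9% differed in the FGF2 effect and 20.9% in the knockdown effect, and each day is also a batch of its own in the labels.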

How the results depend on the processing

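Of the counts of members called, only that of the knockdown at d2.5 (2 members) moved by over 1.5 times. It was 4 without the filter and with only the 2 groups compared, 1 with unstranded counts and with all 18 libraries in 1 fit, and between 1 and 4 with a library left out. Over the other settings, 609 member values kept their direction and side of the threshold, 6 lost a call, 8 gained one and 0 reversed. With a library left out, 971 kept both, 15 lost a call, 14 gained one and 8 reversed. None of those that reversed was called. Their ranges were -0.18 to 0.12 for Id1 with the knockdown at d5 (0.04 without replicate 2 of Y/T dKD+FGF2), -0.025 to 0.13 for Id4 with the knockdown against vehicle at d5, -0.072 to 0.12 for Bmp2 between days in Ctrl+FGF2 (-0.01 without replicate 1 of d5), and -0.047 to 0.015 for Id4 between days in Y/T dKD+FGF2. The causes were not tested. Most same-numbered replicates did not deviate together (r between -0.11 and 0.26 over 18 pairs, 2 of them over 0.1). The same number correlated best in 6 of 18. The 2 pairs over 0.1 were replicates 1 (0.22) and 2 (0.26) of Ctrl+vehicle and Ctrl+FGF2 at d5, where replicate 3 was at 0.02. Replicate 1 against 2 of these groups was at -0.22, and 2 against 1 at -0.24. The labels name no pairing, and whether these libraries were paired was not tested. The replicate block changed 1 member call, the Bmp4 difference of the FGF2 effect (adjusted p = 0.0504 in edgeR), and left 9180 genes called with FGF2 and 3226 with the knockdown at d2.5, and 6352 and 4354 at d5. With the mean transcript length in place of merged exons, mean levels per length were 5.55 for Bmp2, 676 for Grem1 and 43.1 for Id4. Over the 6 group means, 1 of the 3 most like genes was shared for Bmp4, Id1, Id2 and Id3 and 0 for Id4. The depth limits Bmp4 at d2.5, with at most 37 counts a library, and Bmp6.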
